A study of Mus musculus with 4 samples.

Results

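Replication-dependent histone genes were described in intestinal adenomas of mice with and without the gene PAF. They were taken as the rows of the deposited expression table whose symbol starts with Hist1h, Hist2h, Hist3h or Hist4h, which gave 62 of the 29871 gene symbols. There were 6 rows for the linker histone H1, 15 for H2A, 18 for H2B, 11 for H3 and 12 for H4. By RefSeq, 50 of the 62 belong to the large cluster on mouse chromosome 13, 8 to the cluster on chromosome 3, 3 to chromosome 11 and 1 to chromosome 6.

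The core histones H2A, H2B, H3 and H4 form the protein spool around which DNA is wound, and H1 binds the DNA between spools. Replication-dependent histone genes are transcribed mainly while DNA is copied, so their mRNA is abundant in dividing cells such as those of intestinal crypts and adenomas. Most of these mRNAs end in a conserved stem-loop bound by the protein Slbp rather than in a poly(A) tail, and some of the genes also give polyadenylated transcripts, mostly in differentiated cells.

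RNA-seq was run on adenomas of the small intestine. The control group, 2 libraries, had the genotype APC Min/+, in which 1 copy of the tumour suppressor Apc carries the Min truncation. The other group, 2 libraries, was PAF KO; APC Min/+, so the Min allele was shared by all 4 libraries, and PAF was read as Pclaf, the PCNA-associated factor (row 2810417H13Rik), from what is known of the study. The labels give no age, sex or number of animals, and they do not say how the PAF allele was made. They also do not say that the libraries came from separate animals. The p-values therefore measure only the spread between these libraries, and between the controls this may be technical. The labels name total RNA as the molecule, and they do not say whether poly(A) RNA was selected.

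The transcript of the targeted gene, row 2810417H13Rik, read 17.9 and 17.8 FPKM in control libraries against 4.13 and 11.4 with the knockout. It was lower in both but still present, and in knockout 2 most of it was kept (log2 change -1.88 in knockout 1 and -0.60 in knockout 2, adjusted p = 0.398 for both together, limma). The labels do not say which part of the gene was removed, so the row is a weak check of them, and knockout 1 and knockout 2 are the libraries labelled so. FPKM is a fragment count scaled by transcript length and by library depth. Knockout library 2 stood apart from the other 3. It held Xist, the RNA of the silenced X chromosome of females, at 46.4 FPKM against at most 0.00861 elsewhere. By this RNA, knockout 2 held female cells and the other 3 libraries showed none. Sex therefore cannot be told apart from other differences between knockout 2 and the rest. Summed FPKM of 8 enterocyte markers was 7729, 8316 and 12110 in control 1, control 2 and knockout 1 but 898.9 in knockout 2. For 6 smooth muscle markers the sums were 189.1, 189.9, 200.6 and 724.6 FPKM, for 5 goblet cell markers 2712, 3021, 4407 and 6158, for 8 lymphocyte markers 11.7, 13.9, 6.75 and 18.9, and for 10 general epithelial markers 7414, 7300, 8440 and 8479. The sums hide markers that went opposite ways. In knockout 1 some enterocyte markers lay above both controls and others below both, and in knockout 2 not every goblet cell marker was higher. The lymphocyte and the general epithelial markers were also split in knockout 2, some above both controls and others below both. None of these markers was at 0 in every library, and the part of these differences in the histone values was not tested. In bulk RNA, fewer cells of a type and less RNA per cell cannot be told apart.

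The sequence that sets these mRNAs apart was looked up in the GENCODE M21 transcripts (GRCm38) of the 62 genes, all of which matched by symbol. The search was for a stem-loop of 16 bases on the transcript strand, GG and any 4 bases, then TTT and A, C or T, then the reverse complement of the first 6 bases. It was found in 39 of the 62 genes (62.9%) and in 29 of 55388 other genes (0.0524%). The 29 include histone genes that are not among the 62, such as Hist1h2ad and Hist1h4m. The rows below were chosen to show each of the 6 forms found, with Hist1h1c and Hist3h2a added as the H1 and H2A rows of highest level. Capitals mark the stem-loop, and the lower-case letters are the 5 bases on each side.
Hist1h1c: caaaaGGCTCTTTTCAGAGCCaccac
Hist3h2a: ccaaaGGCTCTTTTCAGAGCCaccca
Hist1h3c: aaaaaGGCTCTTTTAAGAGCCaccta
Hist2h2ac: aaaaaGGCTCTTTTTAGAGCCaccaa
Hist1h4c: caaaaGGCCCTTTTCAGGGCCaccca
Hist1h4i: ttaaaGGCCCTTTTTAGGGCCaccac
Hist1h4b: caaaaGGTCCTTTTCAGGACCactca
The form of Hist1h1c and Hist3h2a was the commonest, in 22 rows of types H1, H2A, H2B and H3. All 10 H4 stem-loops differed from it in the stem, 6 having the form of Hist1h4c, 2 that of Hist1h4i and 2 that of Hist1h4b. The form of Hist1h3c was in 6 rows, and that of Hist2h2ac in 1.

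The annotated transcripts also differed in what follows the stem-loop. In 21 rows the transcript ran on for at least 100 bases, among them Hist1h4i (330 bases), Hist1h1c (840 bases), Hist3h2a (1643 bases) and Hist4h4 (2445 bases). These 21 rows had a median level of 1.46 FPKM over the 4 libraries, and 14 of them averaged at least 1 FPKM. In 18 rows, such as Hist1h2ag (23 bases) and Hist1h4b (28 bases), the transcript ended within 100 bases, with a median of 0.684 FPKM and 7 rows at 1 FPKM or more. The remaining 23 rows held no such stem-loop in their annotated transcript, with a median of 0.626 FPKM and 4 rows at 1 FPKM or more. Among them was Hist1h2bc, the highest of all histone rows with a mean of 128.6 FPKM. In 13 of the 23 rows the annotated transcript was at most 20 bases longer than the coding sequence, so the place where a stem-loop would lie was not covered.

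Most histone rows were low, and a few carried nearly all of the signal. Hist1h2bc, an H2B gene, and Hist1h1c, an H1 gene, together held 69.6% and 69.0% of all histone FPKM in control libraries against 73.1% and 60% in knockout libraries. Of the 62 rows, 5 were listed at 0 in every library. They were Hist1h2aa and Hist1h2ba, which encode the testis forms of H2A and H2B, and Hist1h2ap, Hist1h2br and Hist2h2aa2. Another 20 rows were at 0 in some libraries. By library, 18, 13, 17 and 7 of the 62 rows were listed at 0 in control 1, control 2, knockout 1 and knockout 2. The fewest zeros were in knockout 2, and the other knockout library lay between the controls. Of the 18 H2B rows, 8 were at 0 in knockout 1 and 3 in knockout 2. Of the 12 H4 rows, 3 were at 0 in knockout 1 and 0 in knockout 2. Among the 57 histone rows above 0 in some library, 6 had both controls at 0 and 0 had both knockout libraries at 0. Over the whole table these were 6.85% and 3.14% of the rows above 0 in some library. Knockout 2 was also the deepest library.

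A value of 0 in one library and at least 1 FPKM in the other library of the same genotype occurred in 5 rows. Hist1h4f, an H4 gene, read 0.622 and 0.468 FPKM in control libraries against 0 and 1.48 in knockout libraries. Hist1h2ai, an H2A gene, read 0 and 0.822 FPKM in control libraries against 0 and 1.23 in knockout libraries. Hist1h2an, also H2A, was at 0 in 3 libraries and at 1.85 FPKM in knockout 2. In all 3 the knockout libraries lay on either side of the controls or level with one of them, so the groups overlapped.

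**Figure D1:**
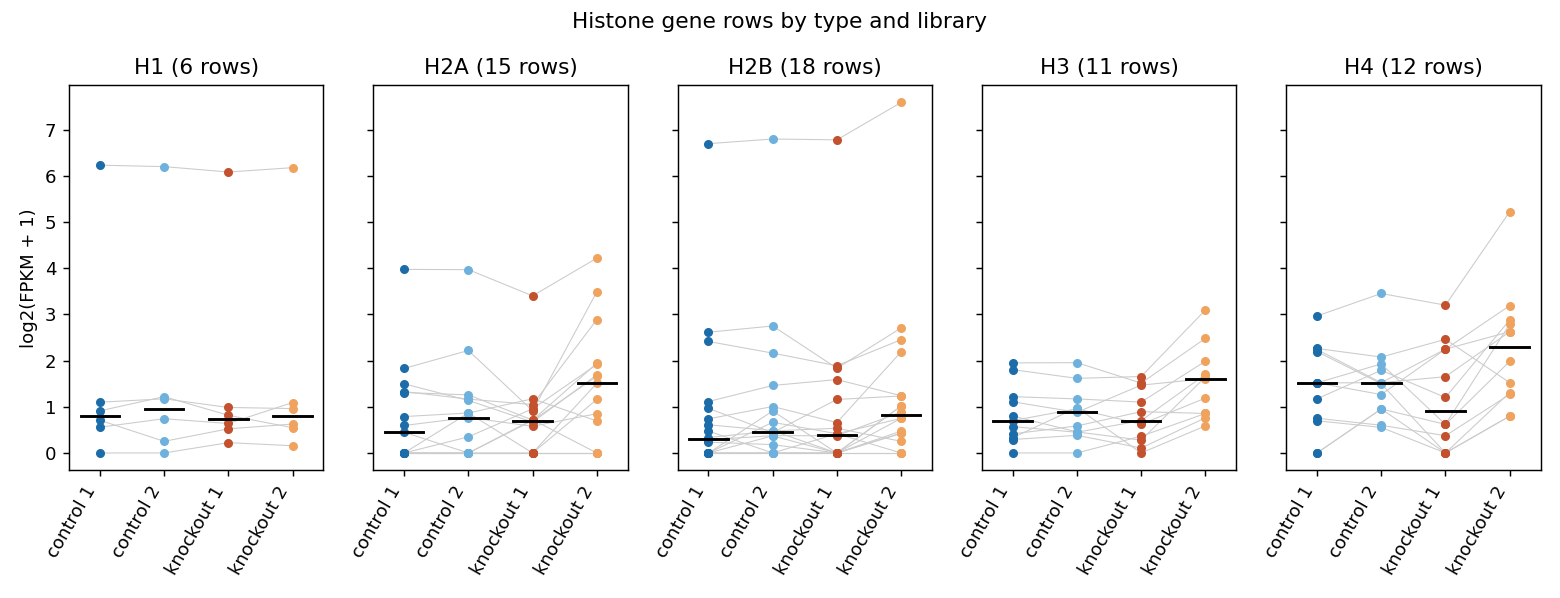
Level of each histone row on the log2(FPKM + 1) scale (vertical axis) in the 4 libraries (horizontal axis), with 1 panel for each histone type. Points are rows, grey lines join the same row and black bars are medians. Most rows sit near 0, with Hist1h1c and Hist1h2bc far above the rest of their types, and knockout 2 is the highest library for most rows of H2A, H2B, H3 and H4.

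No histone row was called between the genotypes. With limma on log2(FPKM + 1), 25 of the 62 rows averaged at least 1 FPKM and were tested, and 0 had an adjusted p under 0.05, against 10 of 13716 rows in the whole table (0.0729%), all lower in the knockout. At an unadjusted p under 0.05 there were 3 of the 25 (Hist1h4c, Hist4h4 and Hist1h4b), against 1810 rows of the whole table (13.2%). Of the 57 rows above 0 in some library, 10 had both knockout libraries above both controls and 5 had both below. Over the whole table these were 21.3% and 24.0% of the 21376 rows above 0 in some library.

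Knockout 2 was the highest of the 4 libraries in 39 of 57 histone rows (68.4%), against 45.6% of rows in the whole table. In this paragraph the whole table means its 21376 rows above 0 in some library. Knockout 1 was the lowest in 22 (38.6%), against 29.9%. The median difference between the 2 knockout libraries was 0.798 on the log2 scale over histone rows and 0.313 over the whole table. Between the controls it was 0.186 and 0.078. The knockout libraries differed from each other more than the controls did in 46 of 57 rows (80.7%), close to the 79.5% of rows in the whole table. The median log2 change from the control mean was -0.104 in knockout 1 and 0.531 in knockout 2, and 0.176 for the knockout mean. Over the whole table these medians were -0.034, 0.042 and 0.02.

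The values were also taken by type. For H4 the median log2 change was -0.255 in knockout 1 and 0.905 in knockout 2, for H2A -0.152 and 0.693, for H3 -0.093 and 0.614, and for H2B 0 and 0.319. For H1 it was -0.072 and 0.054. Knockout 2 was the highest library in 10 of 12 H2A rows, 10 of 16 H2B rows, 9 of 11 H3 rows and 9 of 12 H4 rows, but in 1 of 6 H1 rows. Differences between types were not tested.

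**Figure D2:**
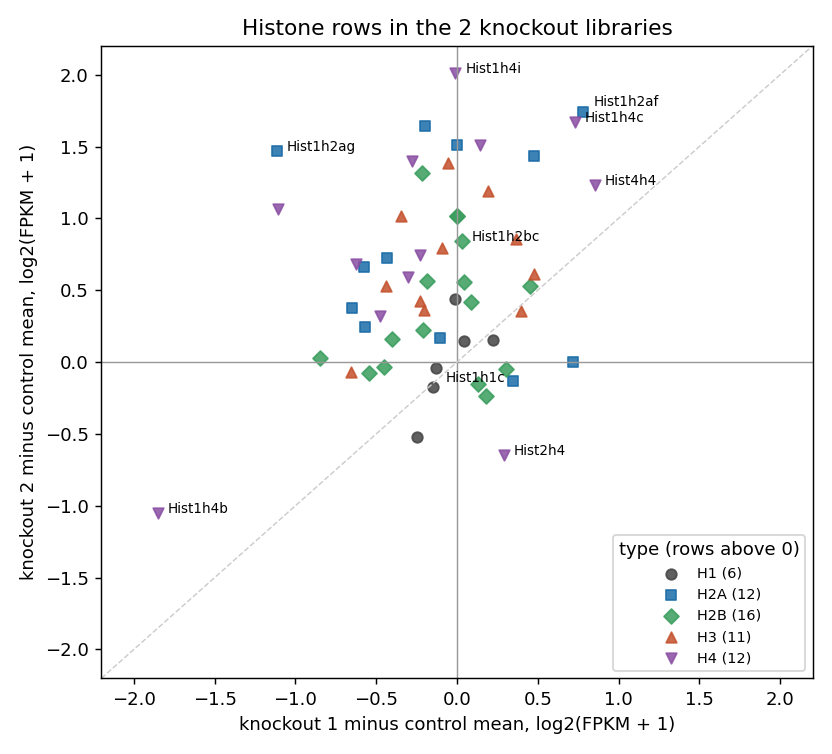
Log2 change of each histone row from the control mean, on the log2(FPKM + 1) scale, in knockout 1 (horizontal axis) and knockout 2 (vertical axis), for the 57 rows above 0. Symbols mark the type and the dashed line marks equal changes. Most rows lie above the line, since 39 were highest in knockout 2, and only Hist1h4b lies far down and to the left.

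Summed over each type, the core histones were highest in knockout 2. H4 rows summed to 26.1 and 28.3 FPKM in control libraries against 25.02 and 76.4 in knockout libraries. H3 rows summed to 10.5 and 10.5 FPKM in control libraries against 9.53 and 25.6 in knockout libraries. In both, knockout 2 was the highest library and knockout 1 the lowest. H2A rows summed to 23.7 and 24.8 FPKM in control libraries against 16.7 and 48.8 in knockout libraries. H2B rows summed to 116.8 and 125.8 FPKM in control libraries against 119.6 and 213.8 in knockout libraries. For H2A and H2B, too, knockout 2 was far above the rest, while knockout 1 lay below or between the controls. H1 rows summed to 77.4 and 76.1 FPKM in control libraries against 69.8 and 74.7 in knockout libraries, so here both knockout libraries lay below both controls, by a ratio of means of 0.942. Over all 62 rows the sums were 254.5, 265.5, 240.7 and 439.4 FPKM, which is 0.926 of the control mean in knockout 1 and 1.69 times it in knockout 2.

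**Figure D3:**
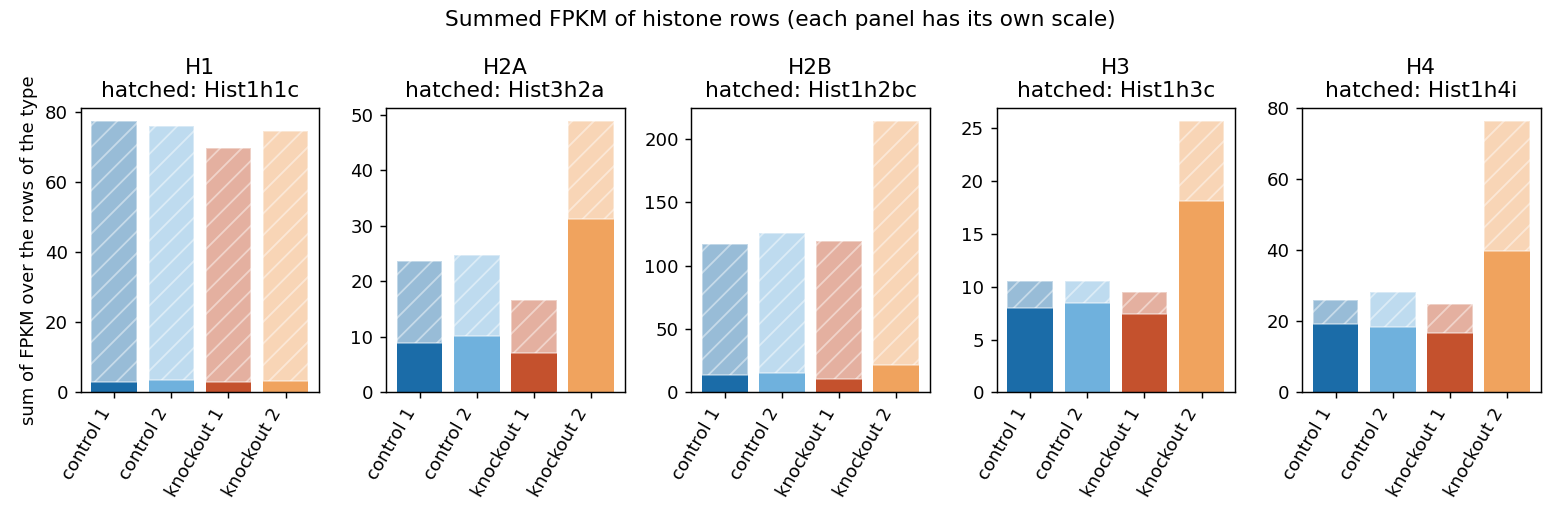
Summed FPKM of the rows of each histone type (vertical axes, each with its own scale) in the 4 libraries, with the row of highest mean hatched. Knockout 2 has the tallest bar for H2A, H2B, H3 and H4, while the 4 H1 bars lie between 69.8 and 77.4 FPKM, nearly all of it Hist1h1c.

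Among the linker histones, Hist1h1c, which encodes H1.2, read 74.3 and 72.7 FPKM in control libraries against 66.9 and 71.5 in knockout libraries. The knockout values lay just below the controls, with a log2 change of -0.09 ± 0.16 (SE; adjusted p = 0.792, limma). It made up 95.7% of H1 FPKM. Hist1h1e, which encodes H1.4, read 1.14 and 1.25 FPKM in control libraries against 0.981 and 0.947 in knockout libraries, again without overlap but with an adjusted p of 0.720. Hist1h1b, which encodes H1.5, averaged under 1 FPKM and was not tested. It read 0.882 and 1.33 FPKM in control libraries against 0.761 and 0.462 in knockout libraries, both lower than the controls. The testis gene Hist1h1t was at 0 in both controls and read 0.168 and 0.115 FPKM in the knockouts.

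Hist3h2a, the H2A gene of the small chromosome 11 cluster, carried 49.7% of H2A FPKM. It read 14.7 and 14.7 FPKM in control libraries against 9.58 and 17.6 in knockout libraries, which lay on either side of the controls (log2 change -0.16, SE 0.33, adjusted p = 0.812, limma). Hist1h2ag read 2.56 and 3.66 FPKM in control libraries against 0.883 and 10.3 in knockout libraries. Here the knockout libraries were the lowest and the highest of the 4, more than 10 times apart, and the log2 change was 0.18 ± 0.96 (SE; adjusted p = 0.933, limma). Hist1h2ae read 1.51 and 1.24 FPKM in control libraries against 1.07 and 6.41 in knockout libraries, the same order (adjusted p = 0.633, limma). Hist1h2ab read 1.82 and 1.20 FPKM in control libraries against 0.590 and 2.24 in knockout libraries, and the groups overlapped in each of these 4 rows. Just under the filter, Hist1h2af read 0 and 0.274 FPKM in control libraries against 0.942 and 2.78 in knockout libraries, both higher than either control.

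Hist1h2bc was the highest of all histone rows and 89.3% of H2B FPKM. It read 103 and 110.5 FPKM in control libraries against 109 and 192 in knockout libraries. Knockout 1 lay between the controls and knockout 2 above them, with a log2 change of 0.44 ± 0.34 (SE; adjusted p = 0.573, limma). Hist3h2ba, the H2B neighbour of Hist3h2a on chromosome 11, read 5.13 and 5.73 FPKM in control libraries against 2.57 and 5.54 in knockout libraries. Its log2 change was -0.41 ± 0.36 (SE; adjusted p = 0.605, limma), with the low value in knockout 1 alone. Hist2h2be, an H2B gene of the chromosome 3 cluster, read 4.33 and 3.48 FPKM in control libraries against 2.71 and 4.48 in knockout libraries, and the groups overlapped. Hist1h2bg read 0.670 and 1.01 FPKM in control libraries against 0.578 and 3.57 in knockout libraries. Again knockout 1 was lowest and knockout 2 highest (adjusted p = 0.665, limma). Hist2h2bb, just under the filter, read 0.953 and 0.359 FPKM in control libraries against 1.23 and 1.35 in knockout libraries, both above the controls.

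No H3 row averaged 5 FPKM. Hist1h3c read 2.49 and 2.07 FPKM in control libraries against 2.15 and 7.56 in knockout libraries, with knockout 1 between the controls (log2 change 0.67, SE 0.56, adjusted p = 0.592, limma). Hist1h3g read 2.87 and 2.88 FPKM in control libraries against 1.86 and 4.59 in knockout libraries, on either side of the controls. Hist1h3e read 1.33 and 1.25 FPKM in control libraries against 1.15 and 2.97 in knockout libraries, also on either side. Hist2h3c1, of the chromosome 3 cluster, read 1.16 and 0.842 FPKM in control libraries against 1.77 and 2.05 in knockout libraries. It was the only tested H3 row with both knockouts above both controls, at a log2 change of 0.54 ± 0.23 (SE; adjusted p = 0.418, limma). All of its 100-base windows are shared with another gene, so how fragments were split between the copies is uncertain.

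The 3 smallest p-values of all histone rows were in H4 genes. Hist4h4, the only row of the chromosome 6 locus, read 1.86 and 1.40 FPKM in control libraries against 3.75 and 5.17 in knockout libraries. Both knockouts were above both controls, with a log2 change of 1.05 ± 0.24 (SE; adjusted p = 0.294, limma). Hist1h4c read 1.86 and 1.87 FPKM in control libraries against 3.75 and 8.13 in knockout libraries. It also lay above both controls in both knockouts, with a log2 change of 1.20 ± 0.38 (SE; adjusted p = 0.350, limma). Hist1h4b went the other way, at 3.58 and 1.83 FPKM in control libraries against 0 and 0.739 in knockout libraries. Both knockouts were below both controls, with a log2 change of -1.45 ± 0.44 (SE; adjusted p = 0.339, limma). None of the 3 passed the threshold.

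Hist1h4i carried 39.4% of H4 FPKM and read 6.82 and 9.96 FPKM in control libraries against 8.20 and 36.4 in knockout libraries. Knockout 1 lay between the controls and knockout 2 far above (log2 change 1.003, SE 0.77, adjusted p = 0.572, limma). Hist2h4 read 3.80 and 3.22 FPKM in control libraries against 4.51 and 1.88 in knockout libraries, so here knockout 1 was highest and knockout 2 lowest. Hist1h4j, just above the filter, read 0 and 0.936 FPKM in control libraries against 0.536 and 2.96 in knockout libraries, and the groups overlapped (adjusted p = 0.577, limma).

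With 1 knockout library at a time the result depended on which was used. Against the 2 controls, knockout 2 alone gave 14 of 25 histone rows called by limma, 13 higher and 1 lower (56.0%), where the whole table gave 61.2% called, 34.1% higher and 27.1% lower. The 13 higher rows were 3 H2A, 2 H2B, 3 H3 and 5 H4 rows. Knockout 1 alone gave 3 of 25, 1 higher and 2 lower (12%), where the whole table gave 20.7%, 6.27% higher and 14.4% lower. In these fits the lone knockout library is assumed to vary as the controls do.

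The low histone values allowed a count of fragments behind them. In many rows, though not in all, low FPKM values were whole multiples of the FPKM that 1 fragment is worth in that library. For rows of H3 coding length (411 bases) that was 0.333 FPKM in control 1, for H2A (393 bases) 0.364, for H2B (381 bases) 0.388 and for H4 (312 bases) 0.622. Whole fragment numbers were found this way for 39 of the 57 rows above 0, taking the smallest that fit within 0.3% (0.5% in knockout 2), and for the other 18, which include Hist1h1c, Hist1h2bc, Hist3h2a and Hist1h4i, they were not resolved. In 28 of the 39 rows no library had more than 10 fragments, and the largest number found was 35, in knockout 2. The search stopped at 25 fragments, or at a higher limit in knockout 2, so rows with more fragments stayed unresolved. Hist4h4 rested on 3 and 3 fragments in control libraries against 7 and 7 in knockout libraries. Hist1h4c rested on 3 and 4 in control libraries against 7 and 11 in knockout libraries. Fragment numbers in this paragraph are raw, and the relative depths of the libraries were 1 and 1.33 for controls against 1.16 and 1.89 for knockouts. The 7 and 7 fragments of Hist4h4 are therefore not equal levels. Hist1h4b was not resolved, but its 0.739 FPKM in knockout 2 equals the worth of 1 fragment at H4 length there, and knockout 1 was at 0. Of the rows with zeros, Hist1h2ai had 0 and 3 fragments in control libraries against 0 and 4 in knockout libraries, and the value of Hist1h2an in knockout 2 was 6 fragments.

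The worth of a fragment changed with length in 1 library. Relative to control 1, 1 fragment was worth 0.753 times as much FPKM in control 2 and 0.862 times in knockout 1, at every length. In knockout 2 it was worth 0.528 times as much in long rows, but 0.812 times at H3 length, 0.849 at H2A length, 0.878 at H2B length and 1.19 at H4 length. An H4 fragment in knockout 2 therefore counted for 2.25 times as much FPKM, against control 1, as a fragment of a long row.

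The resolved rows were then compared as fragments. The 39 resolved rows held 97 and 152 fragments in control libraries against 96 and 311 in knockout libraries. Scaled to the depth of control 1 by the long-row steps (relative depths 1, 1.33, 1.16 and 1.89), these were 97.0 (exact Poisson 95% interval 78.7 to 118) and 114.5 (97.0 to 134) in the controls. In the knockouts they were 82.8 (67.1 to 101) and 164.3 (147 to 184). The interval of knockout 2 lay above the other 3, which overlapped. These intervals cover counting error only. Knockout 2 was 2.57 times the control mean in FPKM of these rows and 1.55 times in fragments. By type, the ratios in FPKM and in fragments were 3.08 and 1.84 for H2A, 2.21 and 1.62 for H2B, 2.22 and 1.61 for H3, and 2.97 and 1.66 for H4. For the 2 resolved H1 rows they were 0.66 and 0.59, further from the controls in fragments. Over all 39 rows knockout 1 was also further away in fragments, at 0.91 in FPKM and 0.78 in fragments. The worth of a fragment in knockout 1 did not change with length. A sum of fragments gives more weight to long rows than a sum of FPKM does, because 1 fragment is worth less FPKM there. The gap between the ratios in knockout 2 therefore also holds this difference in weighting. Why the worth of a fragment changed with length in knockout 2 is not recorded in the labels, so it cannot be told which scale lies closer to the amount of RNA.

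The same was done for the 7 H4 rows that share 1 step, that of the coding length, among them Hist4h4, Hist1h4c and Hist1h4d. The GENCODE transcripts of these 3 run on past the stem-loop, so the models counted by the authors were shorter. Together the 7 rows read 9.94 and 10.3 FPKM in control libraries against 10.7 and 29.6 in knockout libraries, with knockout 2 at 2.92 times the control mean. At the depth of control 1 they held 16 and 16.6 fragments in control libraries against 17.3 and 21.1 in knockout libraries. Knockout 2 was then 1.30 times the control mean, with an exact Poisson 95% interval of 15.1 to 28.8 fragments that takes in the other 3 values.

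**Figure D4:**
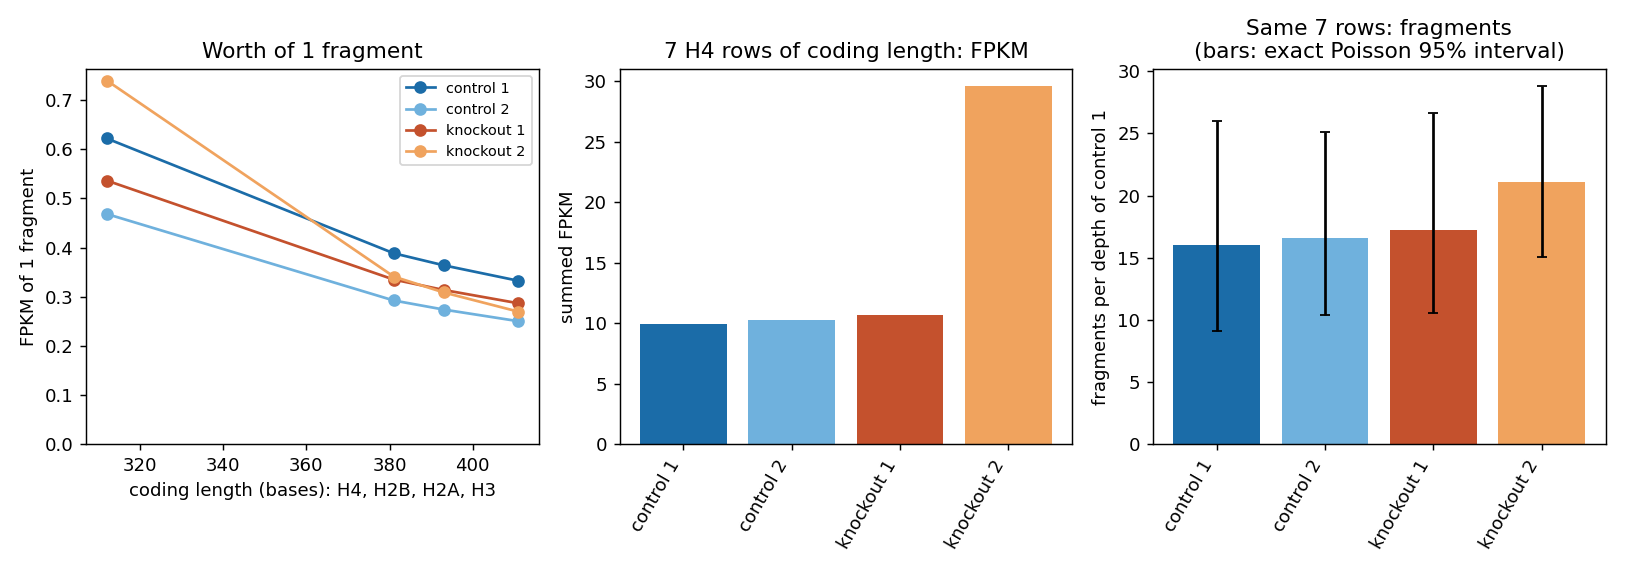
Left, FPKM that 1 fragment is worth (vertical axis) against coding length in bases (horizontal axis) for the 4 core histone types in each library. Middle and right, the 7 H4 rows of coding length as summed FPKM and as fragments at the depth of control 1, with exact Poisson 95% intervals. Knockout 2 is far above the rest in FPKM (29.6) and within the intervals of the other libraries in fragments (21.1).

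Short rows outside the histone family were also compared by length. Among tested protein-coding rows that are not histones, the median log2 change in knockout 2 was 0.396 for 123 rows with transcripts under 600 bases, 0.324 for 600 to 1000 bases, 0.171 for 1000 to 2000, 0.088 for 2000 to 4000 and 0.081 above that. In knockout 1 the medians over the same length classes were 0.049, 0.015, -0.042, -0.116 and -0.201. In both libraries the median was highest in the shortest class, and in knockout 2 all 5 medians were above 0.

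Near-identical copies add a further limit. In 20 of the 62 rows at least 50% of the 100-base windows of the GENCODE transcript also occur in another gene, and within the coding sequence this held for 34 of 61 rows. No coding window was shared in 8 rows, among them Hist4h4, Hist1h4d and Hist2h4. Within the coding sequence the share was 100% for Hist3h2a, Hist1h2ag, Hist2h3c1, Hist1h4n, Hist2h2aa2, Hist1h2ap and Hist1h2br. It was 94.7% for Hist1h2bc and 92.0% for Hist1h3h, and between these in some rows not named here. Fragments from the coding sequence of all of these rows are therefore of uncertain origin. Over the whole GENCODE transcript the share was 25.4% for Hist1h2bc and 29.8% for Hist3h2a. Within the coding sequence it was 61.5% for Hist1h4b, 47.4% for Hist1h4c, 44.6% for Hist1h4i and 13.7% for Hist1h1c.

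The factors that make and process histone mRNA were described next. Slbp, which binds the stem-loop, read 16.1 and 14.2 FPKM in control libraries against 19.0 and 55.3 in knockout libraries. Both knockouts were above both controls, mostly through knockout 2 (log2 change 1.06, SE 0.56, adjusted p = 0.477, limma). Npat, the coactivator of histone gene transcription, read 4.57 and 4.89 FPKM in control libraries against 3.76 and 5.47 in knockout libraries, on either side of the controls. Casp8ap2 (FLASH), which acts in histone mRNA cleavage, read 3.43 and 3.33 FPKM in control libraries against 2.42 and 7.61 in knockout libraries, also on either side. Lsm10, a protein of the U7 particle that cuts histone pre-mRNA, stayed within 14.3 to 15.9 FPKM, and its partner Lsm11 within 2.99 to 3.76.

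In the list of 26 tested genes for histone mRNA processing and decay, 0 were called and 1 had an unadjusted p under 0.05, lower. Their median log2 change was -0.035, beside 0.003 over all tested rows. The smallest p was that of Zcchc11, a uridylyltransferase, at 6.26 and 6.38 FPKM in control libraries against 2.63 and 4.20 in knockout libraries (log2 change -0.75, adjusted p = 0.360, limma). The next were Fip1l1 (log2 change -0.39) and Wdr33 (-0.48), subunits of the general cleavage and polyadenylation complex, both below the controls in both knockouts.

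Replication-independent histone genes, which are transcribed outside S phase too, were set beside them. Of 11 tested 0 were called and 1 had an unadjusted p under 0.05, lower, with a median log2 change of -0.067, with -0.268 in knockout 1 and -0.025 in knockout 2. H2afy2, which encodes macroH2A2, read 13.8 and 12.4 FPKM in control libraries against 4.64 and 6.16 in knockout libraries. Both knockouts were below both controls, at a log2 change of -1.15 ± 0.20 (SE; adjusted p = 0.254, limma). The linker histone H1fx read 39.8 and 42.7 FPKM in control libraries against 21.4 and 5.69 in knockout libraries, also below in both (adjusted p = 0.386, limma). Cenpa, the centromeric H3, read 9.16 and 10.4 FPKM in control libraries against 14.0 and 24.5 in knockout libraries, above in both (adjusted p = 0.388, limma).

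Of 23 histone chaperone genes 0 were called and 1 had an unadjusted p under 0.05, lower, with a median log2 change of 0.122, with -0.103 in knockout 1 and 0.417 in knockout 2. Daxx, a chaperone of H3.3, read 15.97 and 15.16 FPKM in control libraries against 10.9 and 10.3 in knockout libraries. Both knockouts were below both controls, at a log2 change of -0.51 ± 0.15 (SE; adjusted p = 0.333, limma). Ipo4, which carries histones into the nucleus, read 17.3 and 17.6 FPKM in control libraries against 14.8 and 13.2 in knockout libraries. Ssrp1, a subunit of the FACT complex, read 84.5 and 77.1 FPKM in control libraries against 58.5 and 69.7 in knockout libraries, and in both genes the groups did not overlap.

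Of 29 genes of S phase and DNA replication 0 were called, and 3 had an unadjusted p under 0.05, all higher, where 13.2% of all tested rows had one. The median log2 change was 0.158, with -0.027 in knockout 1 and 0.299 in knockout 2. Tk1, thymidine kinase, read 9.48 and 11.0 FPKM in control libraries against 17.1 and 22.3 in knockout libraries (log2 change 0.87, adjusted p = 0.297, limma). Rrm2, a ribonucleotide reductase subunit, read 23.0 and 21.6 FPKM in control libraries against 29.7 and 33.6 in knockout libraries. In Tk1 and Rrm2, which were named for their small p, both knockouts were above both controls. This held for 9 of the 29 genes, while 4 had both knockouts below both controls. The summed core histones were above both controls in knockout 2 alone. Pcna, the replication clamp that PAF binds, read 75.6 and 73.5 FPKM in control libraries against 76.3 and 89.4 in knockout libraries (adjusted p = 0.690, limma).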

How the data were processed

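The authors deposited 1 table of FPKM values, a column per library. Per the submitters' processing notes, TopHat2 and Cuffdiff were used with mouse build mm9, while the sources used here give neither versions nor the gene annotation. The table held 29955 rows, of which 84 repeated a symbol, and the row of higher mean was kept. Library FPKM summed to 528384, 534043, 544145 and 609920. Rows averaging at least 1 FPKM were tested on log2(FPKM + 1) with limma 3.58.1 in R 4.3.3 (trend, Benjamini-Hochberg over 13716 rows), which understates changes of low rows. Medians by type used every row above 0. No count test was used, since FPKM are not counts. Transcript features came from GENCODE M21 on GRCm38, a different build, so no coordinates are given. Python 3.11.15, pandas 2.3.3 and matplotlib 3.10.9 were used.

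Named histone rows were, in each type, the 3 of highest mean and the 3 tested rows of smallest p, the 2 on each side of the filter, and up to 3 with 0 and at least 1 FPKM within a genotype. The other named genes were fixed ones and the 3 of smallest p per list. A gene that this rule names is not reported here. The 5 rows at 0 throughout, Hist1h1t, Hist1h4d, Hist1h4n, Hist1h3h, Hist2h2ac and Xist were named after their values were seen. Members and lists were chosen with earlier results of these data known. In 10 simulated sets of this comparison (13716 rows each), 0.6% of rows changed by a log2 of 1 were recovered, 32% by 2, 53.8% by 3 and 78.2% by 5, with 2 false calls per set. Changes were planted only in rows with a mean log2(FPKM + 1) above 3. Most tested histone rows lay below that, so these rates do not describe them. Whole fragments explained 70.4% of low values in 500 rows of knockout 2 that are not histones, where the tolerance windows cover 3.21%. The length-dependent step of knockout 2 was fitted to these same rows, so this share is not an independent check.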

Additional observations from a re-analysis of the deposited data

How the results depend on the processing

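The 0 histone rows called held under each alternative that kept all 4 libraries (pseudocounts 0.1 and 0.01, no filter, a filter at 5 FPKM, quantile scaling, median centring, limma without the trend, repeated symbols summed). Leaving out a library gave 0 to 14 called, 14 without knockout 1 and 3 without knockout 2. The whole table gave 4 called rows without a filter and 0 to 8397 when a library was left out. Deviations from the group means correlated at -0.115 between libraries of the same replicate number. With 2 libraries per group this is a single value, which cannot show whether the libraries were paired. A replicate block gave 13 called rows and 0 histone rows, and the crossed pairing, chosen after seeing the data like the filter at 1 FPKM and the sums with a library left out, gave 13 and 0. The H1 median moved to 0.131 and 0.191 with pseudocounts of 0.1 and 0.01, to -0.124 and -0.085 with filters at 1 and 5 FPKM and to 0.062 with median centring. With the 5 FPKM filter the H2B median was 0.437 and the H4 median 1.003, and no H3 row was left. These filters keep fewer rows.

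Leaving out 1 library in turn, medians ran from -0.113 to 0.054 for H1, -0.152 to 0.693 for H2A, 0 to 0.319 for H2B, -0.093 to 0.614 for H3, -0.255 to 0.905 for H4 and -0.104 to 0.531 for all histone rows. The log2 ratio of sums ran from -0.136 to -0.039 for H1, -0.537 to 1.009 for H2A, -0.02 to 0.818 for H2B, -0.141 to 1.288 for H3, -0.12 to 1.49 for H4 and -0.111 to 0.757 over all rows. Among 39 named genes, 15 reversed. Their log2 changes ran from -0.57 to 0.25 for Hist3h2a, -1.11 to 1.47 for Hist1h2ag, -0.20 to 1.64 for Hist1h2ae, -0.65 to 0.38 for Hist1h2ab, -0.85 to 0.025 for Hist3h2ba, -0.40 to 0.16 for Hist2h2be, -0.22 to 1.32 for Hist1h2bg, -0.055 to 1.39 for Hist1h3c, -0.44 to 0.53 for Hist1h3g, -0.093 to 0.79 for Hist1h3e, -0.0093 to 2.015 for Hist1h4i, -0.65 to 0.29 for Hist2h4, -0.27 to 0.18 for Npat, -0.36 to 0.97 for Casp8ap2 and -0.071 to 0.18 for Lsm11. Hist1h2ag also reversed with the pseudocount of 0.01 (-0.021), and Npat with quantile scaling (0.017) and median centring (0.011). Beyond the libraries left out, the cause was not tested. Depth limits the low rows: 28 of 39 resolved rows had at most 5 fragments in both controls.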
